A study of Homo sapiens with 12 samples.

Results

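The genes described here are 39 that build, load and feed the DNA replication machinery, chosen by name from the 61044 gene IDs of the deposited table; all 39 were matched by symbol and all passed the filter on low counts. They were followed in SCC-15, an established oral squamous cell carcinoma line, in which FMOD was targeted. FMOD encodes fibromodulin, a secreted proteoglycan that binds collagen fibrils. The 4 groups of 3 RNA-seq libraries were a control hairpin, labelled shRNA-NC and called NC here, and 3 different short hairpin RNAs against FMOD, labelled shRNA1, shRNA2 and shRNA3. All cells were harvested after 48 hours, and every group carried a hairpin construct. The labels do not say whether the libraries of a group came from separate cultures or from separately made cell lines, so p-values measure the spread between these libraries, which may be technical.

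DNA is copied in S phase from origins that are prepared beforehand. The origin recognition complex, CDC6 and CDT1 load the MCM2-7 helicase on DNA in G1, and geminin blocks CDT1 once S phase has begun. Kinases then recruit CDC45 and the GINS complex to turn each loaded helicase into an active one, primase and the polymerases copy both strands, and PCNA clamps the polymerases to DNA. Ribonucleotide reductase, thymidylate synthase and thymidine kinase supply the nucleotides. Many of these genes are transcribed under E2F factors at the border of G1 and S phase, and high levels of their products are used as proliferation markers in squamous carcinomas.

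Library totals ran from 17286975 to 19567248 estimated counts, and levels are given as CPM, counts per 1000000 of the library total, scaled by the trimmed mean of M-values (TMM). The TMM factors were 0.771 and 0.795 for shRNA3 libraries 1 and 2 and 0.979 to 1.11 for the other 10 libraries. Those 2 libraries stood apart from the third of their group: the Pearson correlation of log2 CPM over all tested genes within shRNA3 fell as low as 0.908, while it was 0.977 or higher within each of the other groups. NC and shRNA libraries correlated at 0.773 to 0.795. FMOD itself had 2, 2 and 3 counts in the NC libraries and 0 in all 9 shRNA libraries, which is too few to check the knockdown at this depth. Markers of the labelled tissue and of other cell types also moved with the hairpins. The 13 squamous epithelial markers summed to between 4040 and 4344 CPM in NC and to between 5443 and 6969 CPM in the shRNA libraries. None was at 3 counts or fewer throughout a group. The sum held members that moved in opposite directions. KRT8 went from a mean of 871 CPM in NC to 2345, 2899 and 2446 with shRNA1, shRNA2 and shRNA3. KRT14, KRT17, KRT18, KRT6A, DSG3 and DSP were also higher by group means with every hairpin. KRT5, CDH1, TP63 and PKP1 were lower with every hairpin, and SFN and EPCAM moved both ways. The basal keratin KRT5 went from 1009 CPM to 21.4, 80.2 and 74.9. The epithelial cadherin CDH1 went from 323 to 38.2, 53.4 and 66.1, and PKP1 from 18 to 0.35, 0.601 and 3.71. The 9 fibroblast or mesenchymal markers summed to between 202 and 237 CPM in NC and to between 544 and 996 CPM in the shRNA libraries, VIM going from 3.26 CPM to 445, 609 and 694, with COL3A1 at 3 counts or fewer in each library. Other genes of that list were lower by group means with every hairpin: PDGFRB went from 10.7 CPM to 0.765, 1.1 and 0.728, COL1A2 from 4.81 to 0.0688, 0 and 0.0243, and LUM from 1.15 to 0, 0.0373 and 0. FN1 went from 155 CPM to 234, 30.3 and 75.4. The leukocyte markers, with PTPRC at 3 counts or fewer in the NC and shRNA2 libraries, summed to between 58.7 and 76.3 CPM in NC and to between 44.5 and 236 CPM with the hairpins; most of this was CD68, with group means of 63.2, 75.6, 82.4 and 191 in NC, shRNA1, shRNA2 and shRNA3, while CD14 went from 4.17 to 0.808, 1.85 and 0.765. The endothelial and melanocyte lists summed to 17.9 to 23.2 and 15 to 16.5 CPM in NC and to 4.03 to 14.2 and 3.48 to 10.9 CPM with the hairpins, with KDR and TYR at 3 counts or fewer. Within the endothelial list CDH5 went from 17.3 CPM to 1.94, 2.53 and 1.35 and PECAM1 from 0.133 to 2.6, 4.76 and 8.74. The part of these shifts in the results below was not tested. Whether the NC and shRNA libraries come from the same cell line was not tested either, so in every fold against NC the hairpin cannot be told apart from any other difference between the NC cells and the shRNA cells. In bulk RNA, more cells in S phase and more RNA of these genes per cell cannot be told apart.

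Promoter sequence was taken from RefSeq windows on GRCh38.p14 that span 250 bases before to 50 bases after the annotated start, and 33 of the 39 members had one. The letters TTTCCCGC, TTTGGCGC, TTTCGCGC and TTTGCCGC, which are E2F-type motifs, were searched on both strands. They were found in 19 of the 33 windows (57.6%), against 908 of all 27305 windows of this length (3.33%). The members' windows were also richer in G and C, with a median of 66% against 58.3% over all windows, and the letters searched are themselves rich in them. Of the 26 matches, 22 began before the start site, 16 of them within its last 100 bases. CCAAT was found in 19 of the 33 (57.6%, against 35.7% of all windows), and the CHR letters TTTGAA or TTCGAA in 2 (6.06%, against 16.6%). The 250 bases before the start are printed for 5 members that the results turn on, 5′ to 3′ on the strand of the gene, with E2F-type matches in capitals. MCM6 (chr2:135876444-135876693, minus strand) held 4 matches in 2 overlapping pairs, the most of any member. E2F1 (chr20:33686386-33686635, minus strand) held 2. POLA1 (chrX:24693668-24693917, plus strand), the member with the largest mean fold change, held 1. RRM2 (chr2:10122489-10122738, plus strand), the most raised nucleotide gene, and TK1 (chr17:78187205-78187454, minus strand), the member that was lower, held none of these letters.
MCM6: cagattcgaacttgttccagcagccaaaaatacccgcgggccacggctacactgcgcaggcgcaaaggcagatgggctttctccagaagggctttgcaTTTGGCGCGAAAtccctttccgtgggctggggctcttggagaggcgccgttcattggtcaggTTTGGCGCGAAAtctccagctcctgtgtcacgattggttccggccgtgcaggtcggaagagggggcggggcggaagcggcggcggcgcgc
E2F1: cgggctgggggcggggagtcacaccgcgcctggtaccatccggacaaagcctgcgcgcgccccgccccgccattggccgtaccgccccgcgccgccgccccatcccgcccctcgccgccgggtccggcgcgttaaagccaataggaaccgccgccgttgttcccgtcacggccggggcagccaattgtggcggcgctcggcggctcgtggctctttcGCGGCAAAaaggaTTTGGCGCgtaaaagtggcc
POLA1: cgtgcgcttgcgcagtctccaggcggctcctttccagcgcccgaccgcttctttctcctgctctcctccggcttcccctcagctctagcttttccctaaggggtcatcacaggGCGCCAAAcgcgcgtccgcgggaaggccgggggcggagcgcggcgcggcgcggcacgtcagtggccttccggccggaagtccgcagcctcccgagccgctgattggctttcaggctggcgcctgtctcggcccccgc
RRM2: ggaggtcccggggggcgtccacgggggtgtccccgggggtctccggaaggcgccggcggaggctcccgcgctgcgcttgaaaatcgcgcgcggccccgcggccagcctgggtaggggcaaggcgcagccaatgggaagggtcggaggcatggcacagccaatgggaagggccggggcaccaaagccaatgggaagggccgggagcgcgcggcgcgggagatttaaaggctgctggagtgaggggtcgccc
TK1: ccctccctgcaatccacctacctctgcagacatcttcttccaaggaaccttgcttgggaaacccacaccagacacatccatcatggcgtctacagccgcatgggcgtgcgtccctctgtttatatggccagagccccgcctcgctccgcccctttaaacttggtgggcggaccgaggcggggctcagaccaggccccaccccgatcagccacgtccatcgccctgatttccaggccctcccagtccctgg
A match of letters is a description and not a binding site. The members with an E2F-type match had a median log2 fold change of 1.23 for the mean of the 3 hairpins against NC, and those without one had 1.17; 16 of the 19 and 10 of the 14 passed the test as higher.

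**Figure D1:**
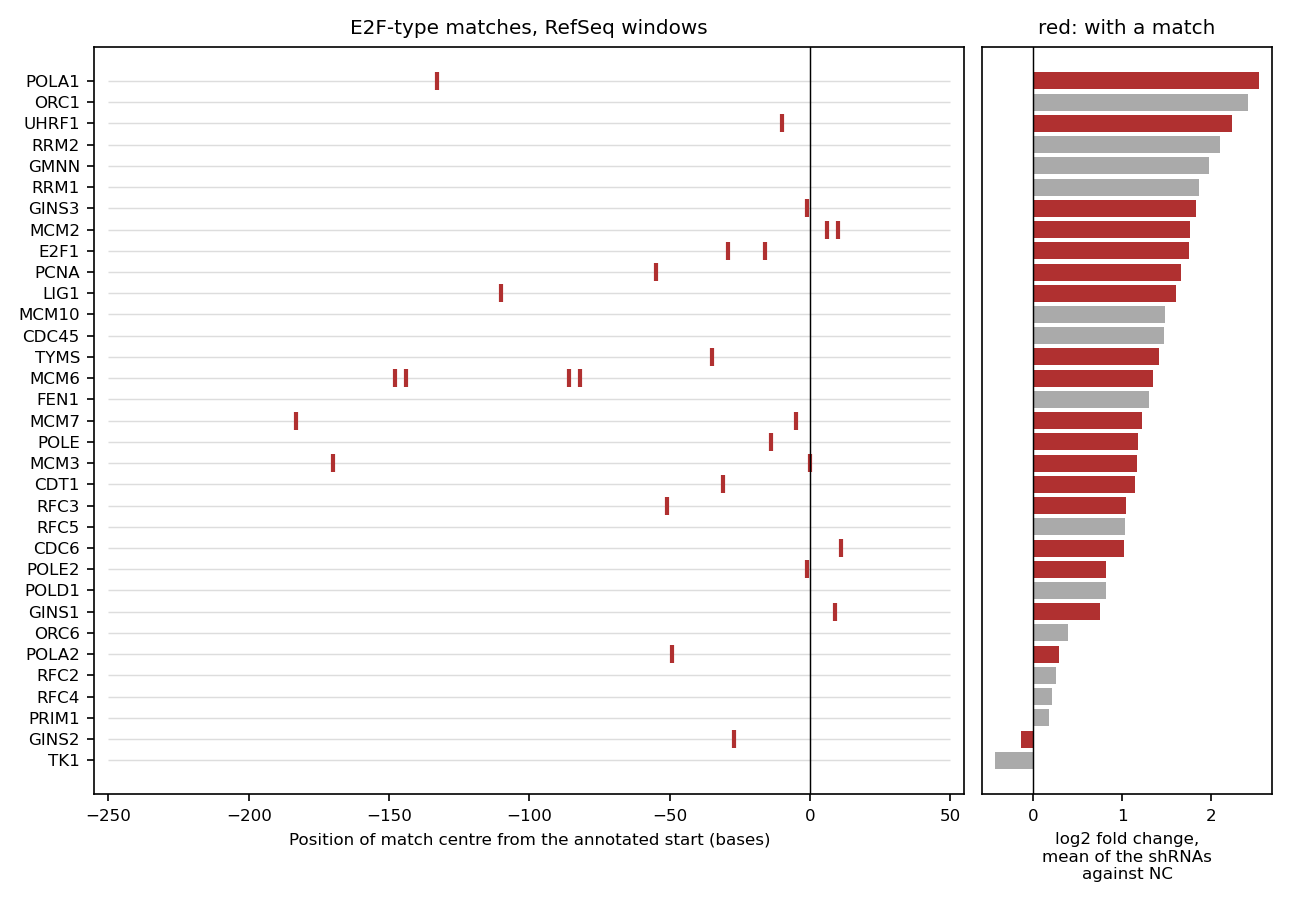
Positions of E2F-type letters in the RefSeq window of each of 33 members, in bases from the annotated start (left), and the log2 fold change of the mean of the 3 shRNAs against NC (right, red bars for members with a match). Members with and without a match are spread over the whole order of fold changes, with medians of 1.23 and 1.17.

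Most replication genes were higher with every hairpin. By edgeR's quasi-likelihood test, with Benjamini-Hochberg adjustment over all 17532 tested genes and a threshold of 0.05, 29 of the 39 members were higher with shRNA1 and 1 lower, where 26.8% of all tested genes were called higher and 30.6% lower. With shRNA2, 29 members were higher and 0 lower, against a background of 24.6% higher and 28.4% lower. With shRNA3, 24 were higher and 1 lower, against 26.4% and 27.6%. For the mean of the 3 hairpins against NC, 31 were higher and 1 lower, against 27.9% and 32.2%. The median log2 fold change of the 39 was 1.19, 1.43 and 1.12 with shRNA1, shRNA2 and shRNA3, where the median over all tested genes was -0.02, -0.05 and -0.03. The 3 comparisons share the NC libraries. The member lowered was TK1 in each case.

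The set of 23 members higher with all 3 hairpins ran through every role: ORC1, CDT1, GMNN, MCM2 to MCM7, CDC45, GINS3, POLA1, POLE, PCNA, RFC3, RFC5, FEN1, LIG1, RRM1, RRM2, TYMS, E2F1 and UHRF1. Of all tested genes, 16.0% were called higher with all 3. In the same 23 members each of the 9 shRNA libraries lay above every NC library, a pattern held by 19.0% of all tested genes. For 0 members did all 9 lie below every NC library, which 25.8% of all tested genes did. CDC6, MCM10, POLD1, RPA2 and E2F8 passed as higher with 2 hairpins, ORC6, GINS1 and GINS4 with 1, and GINS2, POLA2, PRIM1, POLD3, POLE2, RFC2, RFC4 and TK1 with none. The sum of the 39 was 1794 to 2042 CPM in the NC libraries, 3876 to 4738 with shRNA1, 5253 to 5372 with shRNA2 and 4200 to 5245 with shRNA3. Without any TMM scaling the shRNA3 comparison gave 21 members higher and 2 lower, while the split over all genes moved from 4622 higher and 4835 lower to 3214 higher and 5945 lower, and the median over all genes to -0.35. Some members overlap another gene on the opposite strand (MCM2 with TPRA1, GINS2 with GSE1, RFC4 with EIF4A2, RFC5 with WSB2 and RRM1 with RRM1-AS1), and without a known strand setting the reads of such pairs cannot be told apart. Gene positions below are from GENCODE release 29 on GRCh38.

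**Figure D2:**
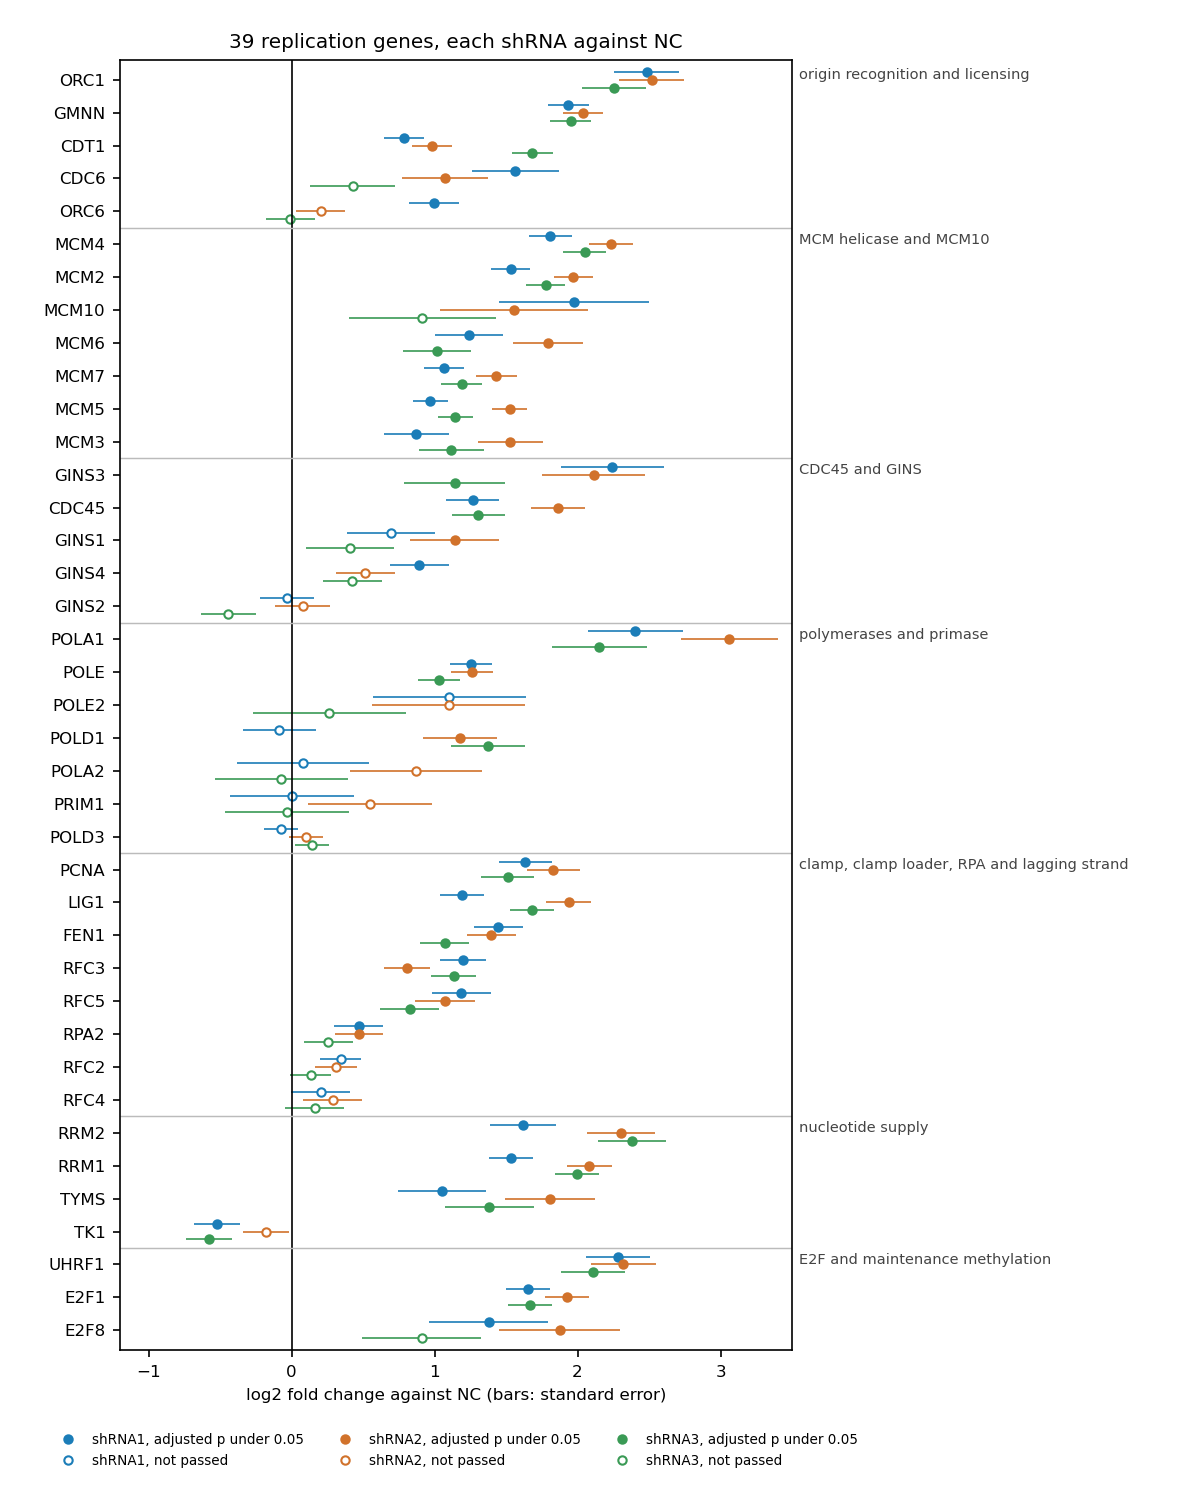
log2 fold change against NC (x axis, bars give the standard error) of the 39 members, ordered by role and then by mean fold change, for shRNA1, shRNA2 and shRNA3; filled points had an adjusted p under 0.05. The MCM2 to MCM7 points all lie right of 0 for each hairpin, and the TK1 points lie left of it.

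Among the origin licensing genes, all 5 passed as higher with shRNA1, 4 with shRNA2 and 3 with shRNA3. ORC1 (ENSG00000085840, chr1:52372829-52404459, minus strand), the ATPase subunit of the origin recognition complex that is made anew in each cycle, stood at 12, 16.9 and 14.6 CPM in the NC libraries, 84.6, 82.9 and 76.3 with shRNA1, 84.9, 80.3 and 84.6 with shRNA2 and 59, 51.8 and 96.9 with shRNA3. Each shRNA library was above every NC library, and shRNA3 library 3 was the highest of all. ORC1 rose 5.6-fold with shRNA1 (log2 2.48 ± 0.23, adjusted p = 5.1e-06), 5.73-fold with shRNA2 (log2 2.52 ± 0.23, adjusted p = 4.8e-06) and 4.77-fold with shRNA3 (log2 2.25 ± 0.22, adjusted p = 1.1e-05). GMNN (ENSG00000112312, chr6:24774931-24786099, plus strand) encodes geminin, the inhibitor of CDT1, and stood at 15.8, 20.4 and 18 CPM in the NC libraries, 62.1, 79.4 and 65.9 with shRNA1, 72.8, 74.7 and 75.2 with shRNA2 and 73.1, 67.2 and 69.3 with shRNA3. The 9 shRNA libraries lay close together and far from NC. GMNN rose 3.82-fold with shRNA1 (log2 1.94 ± 0.14, adjusted p = 1.2e-06), 4.11-fold with shRNA2 (log2 2.04 ± 0.14, adjusted p = 8.1e-07) and 3.87-fold with shRNA3 (log2 1.95 ± 0.14, adjusted p = 1.2e-06). CDT1 (ENSG00000167513, chr16:88803213-88809258, plus strand), the loader that geminin blocks, stood at 44.4, 53.2 and 42.2 CPM in the NC libraries, 84.6, 84.1 and 72.5 with shRNA1, 92.3, 86.9 and 96.9 with shRNA2 and 167, 153 and 129 with shRNA3. It was highest in the 3 shRNA3 libraries, which did not overlap with any other group. CDT1 rose 1.73-fold with shRNA1 (log2 0.79 ± 0.14, adjusted p = 0.00059), 1.98-fold with shRNA2 (log2 0.98 ± 0.14, adjusted p = 0.00014) and 3.21-fold with shRNA3 (log2 1.68 ± 0.14, adjusted p = 3.4e-06).

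CDC6, the ATPase that brings the MCM helicase to the origin with CDT1, stood at 42.5, 43.9 and 38 CPM in the NC libraries, 128, 128 and 112 with shRNA1, 86.2, 86.8 and 88.9 with shRNA2 and 42.6, 32.1 and 92.5 with shRNA3. The shRNA1 and shRNA2 libraries were all above NC, whereas shRNA3 libraries 1 and 2 were within or below the NC range and library 3 was far above it. CDC6 rose 2.96-fold with shRNA1 (log2 1.56 ± 0.30, adjusted p = 0.0011) and 2.1-fold with shRNA2 (log2 1.07 ± 0.30, adjusted p = 0.010), and the shRNA3 difference did not pass (log2 0.43 ± 0.30, adjusted p = 0.25). ORC6, the smallest subunit of the origin recognition complex, stood at 31.7, 34.7 and 35.1 CPM in the NC libraries, 73.6, 76.1 and 52.5 with shRNA1, 38.2, 39.5 and 39.1 with shRNA2 and 31.2, 28.8 and 40.8 with shRNA3. The shRNA1 libraries were far above NC, the shRNA2 libraries slightly above it, and the shRNA3 libraries fell on both sides of it. ORC6 rose 1.99-fold with shRNA1 (log2 0.99 ± 0.17, adjusted p = 0.00054), and the mean over the 3 hairpins rose 1.32-fold (log2 0.4 ± 0.15, adjusted p = 0.033), a call lost in 10 of the alternative settings, among them the fits without each NC library in turn (adjusted p from 0.080 to 0.13).

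The MCM genes rose together, 7 of 7 with shRNA1 and shRNA2 and 6 of 7 with shRNA3. MCM2 to MCM7 encode the 6 subunits of the replicative helicase, and MCM10 a factor that helps to activate it. MCM2 (ENSG00000073111, chr3:127598223-127622436, plus strand) stood at 123, 135 and 112 CPM in the NC libraries, 387, 338 and 346 with shRNA1, 484, 467 and 499 with shRNA2 and 412, 378 and 478 with shRNA3. No shRNA library came near the NC range. MCM2 rose 2.89-fold with shRNA1 (log2 1.53 ± 0.14, adjusted p = 4.1e-06), 3.92-fold with shRNA2 (log2 1.97 ± 0.14, adjusted p = 8.2e-07) and 3.43-fold with shRNA3 (log2 1.78 ± 0.14, adjusted p = 1.8e-06). MCM4 had the largest mean fold change of the 6 subunits, with 98.1, 101 and 93.6 CPM in the NC libraries, 289, 314 and 425 with shRNA1, 447, 472 and 459 with shRNA2 and 395, 405 and 414 with shRNA3. Library 3 was the highest of the shRNA1 libraries. MCM4 rose 3.51-fold with shRNA1 (log2 1.81 ± 0.15, adjusted p = 2.7e-06), 4.7-fold with shRNA2 (log2 2.23 ± 0.15, adjusted p = 7.1e-07) and 4.14-fold with shRNA3 (log2 2.05 ± 0.15, adjusted p = 1.3e-06). MCM3 had the smallest mean fold change, with 86.6, 108 and 88.2 CPM in the NC libraries, 138, 152 and 228 with shRNA1, 275, 268 and 274 with shRNA2 and 167, 173 and 273 with shRNA3. In both shRNA1 and shRNA3 its library 3 exceeded libraries 1 and 2, though all 9 exceeded NC. MCM3 rose 1.83-fold with shRNA1 (log2 0.87 ± 0.23, adjusted p = 0.0062), 2.89-fold with shRNA2 (log2 1.53 ± 0.23, adjusted p = 0.00019) and 2.17-fold with shRNA3 (log2 1.12 ± 0.23, adjusted p = 0.0015).

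The other 3 subunits moved with them. MCM5, at 70.7 ± 8.66 CPM (SD, n = 3) in NC, was higher by 1.96, 2.88 and 2.21-fold (in the order shRNA1, shRNA2, shRNA3). MCM6, at 44.4 ± 4.09 CPM in NC, rose 2.37, 3.47 and 2.03-fold, and its shRNA3 call was lost without TMM scaling (adjusted p = 0.071). MCM7, at 152 ± 15.7 CPM in NC, rose 2.09, 2.7 and 2.28-fold; it overlaps AP4M1 on the opposite strand and hosts MIR106B, MIR25 and MIR93, and whether counting used strand is not given in the sources used here. Per kilobase of exon, which allows levels to be compared between genes, the 6 subunits in NC ran from 9.63 RPKM for MCM5 to 34.7 for MCM7. MCM7 stood at 34.7, 72.5, 93.5 and 79.1 RPKM in NC, shRNA1, shRNA2 and shRNA3, MCM2 at 25.2, 72.8, 98.6 and 86.2 and MCM5 at 9.63, 18.9, 27.7 and 21.3. By group means MCM5 was the lowest of the 6 throughout, though it lay within the spread of MCM6 in NC and in shRNA3, and MCM2 stood slightly above MCM7 with each hairpin; these differences between genes were not tested.

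MCM10 is described because of its split within shRNA3, a choice made after its values were seen. It stood at 8.58, 9.95 and 7.61 CPM in the NC libraries, 34.2, 35.9 and 32.6 with shRNA1, 26.4, 24.9 and 25.5 with shRNA2 and 7.56, 6.12 and 35.3 with shRNA3. The shRNA1 and shRNA2 libraries did not overlap with NC, but shRNA3 libraries 1 and 2 were below the lowest NC library, and library 3 lay in the range of shRNA1. MCM10 rose 3.93-fold with shRNA1 (log2 1.97 ± 0.52, adjusted p = 0.0072) and 2.94-fold with shRNA2 (log2 1.55 ± 0.52, adjusted p = 0.025), the second call being lost in 7 of the alternative settings, among them the fits without each NC library in turn (adjusted p from 0.055 to 0.082). The shRNA3 difference did not pass (log2 0.92 ± 0.51, adjusted p = 0.15).

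CDC45 and the GINS complex ride with the MCM ring and make it unwind DNA. Of the 5 genes, 3 rose with shRNA1, 3 with shRNA2 and 2 with shRNA3. CDC45 (ENSG00000093009, chr22:19479459-19520612, plus strand) stood at 23.2, 23.3 and 19.8 CPM in the NC libraries, 46.4, 46.4 and 67 with shRNA1, 82.7, 75.7 and 83 with shRNA2 and 48, 49 and 66.9 with shRNA3. Every shRNA library was well above NC, with shRNA2 the highest. CDC45 rose 2.41-fold with shRNA1 (log2 1.27 ± 0.19, adjusted p = 0.00015), 3.64-fold with shRNA2 (log2 1.86 ± 0.19, adjusted p = 1.1e-05) and 2.47-fold with shRNA3 (log2 1.3 ± 0.19, adjusted p = 0.00014). GINS3 stood at 7.37, 8.17 and 7.36 CPM in the NC libraries, 35.3, 37.6 and 35.7 with shRNA1, 34.4, 31.2 and 33.4 with shRNA2 and 11.1, 9.26 and 29.9 with shRNA3. Its shRNA3 libraries 1 and 2 were only slightly above NC, and library 3 was close to the other hairpins. GINS3 rose 4.74-fold with shRNA1 (log2 2.24 ± 0.36, adjusted p = 0.00030), 4.32-fold with shRNA2 (log2 2.11 ± 0.36, adjusted p = 0.00048) and 2.2-fold with shRNA3 (log2 1.14 ± 0.35, adjusted p = 0.017), and the shRNA3 call was lost without NC library 1 (adjusted p = 0.055), without NC library 3 (0.056), without TMM scaling (0.11) and when NC and shRNA3 were fitted alone (0.084). GINS2 stood at 16.5, 19.7 and 16.9 CPM in the NC libraries, 15.5, 16.8 and 19.6 with shRNA1, 20.2, 16.6 and 19.3 with shRNA2 and 11.1, 12 and 16 with shRNA3. Its shRNA1 and shRNA2 libraries overlapped with NC, and all 3 shRNA3 libraries were below the lowest NC library, without passing the test (log2 -0.44 ± 0.19, adjusted p = 0.072). GINS1, at 30.5 ± 1.22 CPM in NC and 67.3 ± 3.56 with shRNA2, rose 2.21-fold there (log2 1.14 ± 0.31, adjusted p = 0.0091). Its 3 shRNA1 libraries also lay above every NC library, without passing (log2 0.69 ± 0.31, adjusted p = 0.074). With shRNA3 it did not pass either (adjusted p = 0.28). GINS4, at 17.4 ± 0.416 CPM in NC and 32.4 ± 2.72 with shRNA1, rose 1.86-fold there (log2 0.89 ± 0.21, adjusted p = 0.0033). Its 3 shRNA2 libraries also lay above every NC library, without passing (log2 0.52 ± 0.21, adjusted p = 0.053). With shRNA3 it did not pass either (adjusted p = 0.10). The 4 GINS genes, whose products form 1 complex, thus had a call from all 3 hairpins (GINS3), from 1 (GINS1 and GINS4) or from none (GINS2); differences between the genes were not tested.

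The polymerase and primase genes were divided. Of 7, 2 rose with shRNA1, 3 with shRNA2 and 3 with shRNA3. The shRNA1 share was 28.6%, near the 26.8% of all tested genes called higher. With shRNA2 and shRNA3 it was 42.9% each, beside 24.6% and 26.4%. POLA1 (ENSG00000101868, chrX:24693919-24996986, plus strand), the catalytic subunit of polymerase alpha, which extends the RNA primers, stood at 8.13, 10.7 and 8.32 CPM in the NC libraries, 35.4, 40.1 and 68.7 with shRNA1, 76.9, 74.6 and 75.7 with shRNA2 and 29.4, 29.2 and 62.2 with shRNA3. Per kilobase of exon it was the lowest member in NC, at 1.43 RPKM, and it was higher in each shRNA library, with library 3 the highest in both shRNA1 and shRNA3. POLA1 rose 5.3-fold with shRNA1 (log2 2.4 ± 0.33, adjusted p = 0.00010), 8.35-fold with shRNA2 (log2 3.06 ± 0.34, adjusted p = 2.2e-05) and 4.45-fold with shRNA3 (log2 2.15 ± 0.33, adjusted p = 0.00023). Its partners in the polymerase alpha and primase complex that are members are POLA2 and PRIM1. POLA2, the regulatory subunit, stood at 18, 18.7 and 19.5 CPM in the NC libraries, 12.1, 16.8 and 30.4 with shRNA1, 30.7, 35.2 and 36.9 with shRNA2 and 9.94, 9.18 and 34.1 with shRNA3. PRIM1, the catalytic primase subunit, stood at 22.5, 26.6 and 24.4 CPM in the NC libraries, 18.9, 22 and 32.9 with shRNA1, 34.9, 36.2 and 36.3 with shRNA2 and 10.4, 15.3 and 46 with shRNA3. In both genes the shRNA2 libraries lay above NC, while libraries 1 and 2 of shRNA1 and of shRNA3 lay below NC and library 3 of each lay above it. Neither passed the test with any hairpin; both are shown in full because of this split, after their values were seen. PRIM1 overlaps NACA on its own strand and HSD17B6 on the other.

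POLD1, the catalytic subunit of polymerase delta, stood at 68, 78.3 and 63.7 CPM in the NC libraries, 53.3, 57 and 87.6 with shRNA1, 162, 149.8 and 163 with shRNA2 and 220.5, 213 and 110.1 with shRNA3. Its shRNA2 and shRNA3 libraries were above NC and its shRNA1 libraries fell on both sides of it. In shRNA3 the order was the opposite of most members, with libraries 1 and 2 above library 3. POLD1 rose 2.26-fold with shRNA2 (log2 1.18 ± 0.26, adjusted p = 0.0025) and 2.59-fold with shRNA3 (log2 1.37 ± 0.26, adjusted p = 0.00097). With shRNA1 the difference did not pass (log2 -0.09 ± 0.26, adjusted p = 0.79). POLD3, an accessory subunit, stood at 34.2, 36.3 and 34.4 CPM in the NC libraries, 31.8, 35.7 and 32.3 with shRNA1, 35.5, 38.3 and 38.8 with shRNA2 and 40.9, 37.1 and 37.9 with shRNA3. All 12 libraries lay in a narrow range, and no comparison passed. POLE, the catalytic subunit of polymerase epsilon, went from 60.4 ± 6.09 CPM in NC to 144 ± 12.4, 145 ± 3.03 and 124 ± 22.8 with shRNA1, shRNA2 and shRNA3, and rose 2.39, 2.4 and 2.05-fold. POLE2, its second subunit, had the fewest reads of the members, 26 counts in its lowest library, and stood at 3.89, 5.32 and 5.12 CPM in the NC libraries, 8.76, 10.6 and 11.5 with shRNA1, 10.1, 9.75 and 10.9 with shRNA2 and 1.93, 2.7 and 12.4 with shRNA3. The shRNA1 and shRNA2 libraries were all above NC and shRNA3 libraries 1 and 2 both below it, yet no comparison passed, the adjusted p being 0.098 with shRNA1 and 0.11 with shRNA2; it is shown in full after its values were seen.

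Among the clamp, clamp loader, single-strand binding and lagging strand genes, 6 of 8 rose with shRNA1, 6 with shRNA2 and 5 with shRNA3. PCNA (ENSG00000132646, chr20:5114953-5126626, minus strand), the sliding clamp, stood at 56, 69.5 and 66.7 CPM in the NC libraries, 194, 223 and 179 with shRNA1, 246, 219 and 219 with shRNA2 and 160, 149.7 and 238 with shRNA3. The 9 shRNA libraries were all above NC. PCNA rose 3.11-fold with shRNA1 (log2 1.64 ± 0.18, adjusted p = 2.4e-05), 3.56-fold with shRNA2 (log2 1.83 ± 0.19, adjusted p = 1.1e-05) and 2.85-fold with shRNA3 (log2 1.51 ± 0.18, adjusted p = 4.4e-05). RFC2 to RFC5 encode the small subunits of the loader that opens the clamp. RFC3 (45.8 ± 2.35 CPM in NC) was higher by 2.3, 1.75 and 2.19-fold in the same order, and RFC5 (29.9 ± 3.01 CPM in NC) rose 2.28, 2.11 and 1.77-fold, its shRNA3 call being lost without TMM scaling (adjusted p = 0.14). RFC4 stood at 56.8, 53.3 and 58.5 CPM in the NC libraries, 54.4, 73.2 and 66.7 with shRNA1, 67.8, 68.8 and 69.1 with shRNA2 and 50.8, 49.7 and 88.2 with shRNA3. It overlapped with NC in both shRNA1 and shRNA3 and passed with no hairpin. RFC2 went from 47.6 ± 2.6 CPM in NC to 60.4 ± 1.34, 59.1 ± 3.18 and 52.2 ± 10.5 and also passed with none. Its shRNA1 and shRNA2 libraries nevertheless all lay above every NC library (adjusted p = 0.062 and 0.093). Of the 4 loader genes 2 thus had a call from all hairpins and 2 from none, and differences between the genes were not tested.

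FEN1, the flap nuclease that trims Okazaki fragments, went from 42.3 ± 5.53 CPM in NC to 115 ± 6.46, 111 ± 2.34 and 88.8 ± 22.1 with shRNA1, shRNA2 and shRNA3, and rose 2.72, 2.63 and 2.1-fold; it overlaps TMEM258 on the opposite strand and FADS2 on its own. LIG1, the ligase that seals them, went from 24.7 ± 3.9 CPM to 56.6 ± 3.75, 94.9 ± 10.1 and 79.5 ± 9.54, and rose 2.28, 3.83 and 3.21-fold. RPA2, a subunit of the single-strand binding protein, went from 52.5 ± 1.74 CPM to 72.8 ± 1.46 with shRNA1 and 72.8 ± 1.86 with shRNA2, a rise of 1.39-fold in each (adjusted p = 0.034 and 0.036). Both calls were lost when any 1 library of the groups compared was left out, with an adjusted p from 0.060 to 0.097. With shRNA3 it stood at 62.7 ± 18.1 CPM and did not pass (adjusted p = 0.23).

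The nucleotide genes split 3 against 1. RRM1 and RRM2 encode the large and small subunits of ribonucleotide reductase, which makes deoxynucleotides. RRM2 (ENSG00000171848, chr2:10120698-10131419, plus strand) stood at 78.3, 94.2 and 73.8 CPM in the NC libraries, 180.3, 213 and 363 with shRNA1, 403, 404 and 409.7 with shRNA2 and 456, 450.3 and 378 with shRNA3. All 9 shRNA libraries were above NC, and within shRNA1 library 3 was much higher than libraries 1 and 2. RRM2 rose 3.07-fold with shRNA1 (log2 1.62 ± 0.23, adjusted p = 0.00013), 4.94-fold with shRNA2 (log2 2.31 ± 0.24, adjusted p = 1.2e-05) and 5.22-fold with shRNA3 (log2 2.38 ± 0.24, adjusted p = 1.0e-05). RRM1 went from 105 ± 1.16 CPM in NC to 306 ± 67.7, 447 ± 6.9 and 421 ± 27.1, and rose 2.9, 4.23 and 3.99-fold. TYMS (ENSG00000176890, chr18:657604-673578, plus strand), thymidylate synthase, which makes dTMP from dUMP, stood at 32.8, 37.9 and 33.2 CPM in the NC libraries, 42.9, 51.3 and 122 with shRNA1, 126, 119 and 118 with shRNA2 and 88.1, 84.5 and 98.3 with shRNA3. The 3 shRNA1 libraries were above NC but far apart, the third matching shRNA2. TYMS rose 2.07-fold with shRNA1 (log2 1.05 ± 0.31, adjusted p = 0.013), 3.49-fold with shRNA2 (log2 1.8 ± 0.31, adjusted p = 0.00055) and 2.61-fold with shRNA3 (log2 1.38 ± 0.31, adjusted p = 0.0030). Without shRNA1 library 3 its log2 fold change with shRNA1 was 0.45 (adjusted p = 0.016). It overlaps ENOSF1 and TYMSOS on the opposite strand.

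TK1 (ENSG00000167900, chr17:78174075-78187233, minus strand), the cytosolic thymidine kinase that salvages thymidine and a serum marker of proliferation, went the other way. It stood at 149, 175 and 139 CPM in the NC libraries, 100.1, 104 and 119 with shRNA1, 141, 134 and 134 with shRNA2 and 92, 88.2 and 129.7 with shRNA3. The shRNA1 libraries and all 3 shRNA3 libraries were below the lowest NC library. So were shRNA2 libraries 2 and 3, while shRNA2 library 1 lay within the NC range. TK1 was 1.43-fold lower with shRNA1 (log2 -0.52 ± 0.16, adjusted p = 0.016) and 1.49-fold lower with shRNA3 (log2 -0.58 ± 0.16, adjusted p = 0.010), and the shRNA2 difference did not pass (log2 -0.18 ± 0.16, adjusted p = 0.38). The shRNA1 call was lost without NC library 2 (adjusted p = 0.077), without shRNA1 library 1 (0.065) or without shRNA1 library 2 (0.062). The shRNA3 call was lost without shRNA3 library 1 (adjusted p = 0.057) or library 2 (0.061), without both (0.21), and when the libraries of NC and shRNA3 were fitted alone (0.079). Over all the alternative settings the adjusted p ran from 0.00026 to 0.077 for shRNA1 and from 2.0e-05 to 0.21 for shRNA3. Per kilobase of exon TK1 was the most abundant member in NC, at 82.9 RPKM, ahead of PCNA at 43.5. With the hairpins the order turned: PCNA stood at 135, 155 and 124 RPKM with shRNA1, shRNA2 and shRNA3 and TK1 at 57.8, 73.3 and 55.5.

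**Figure D3:**
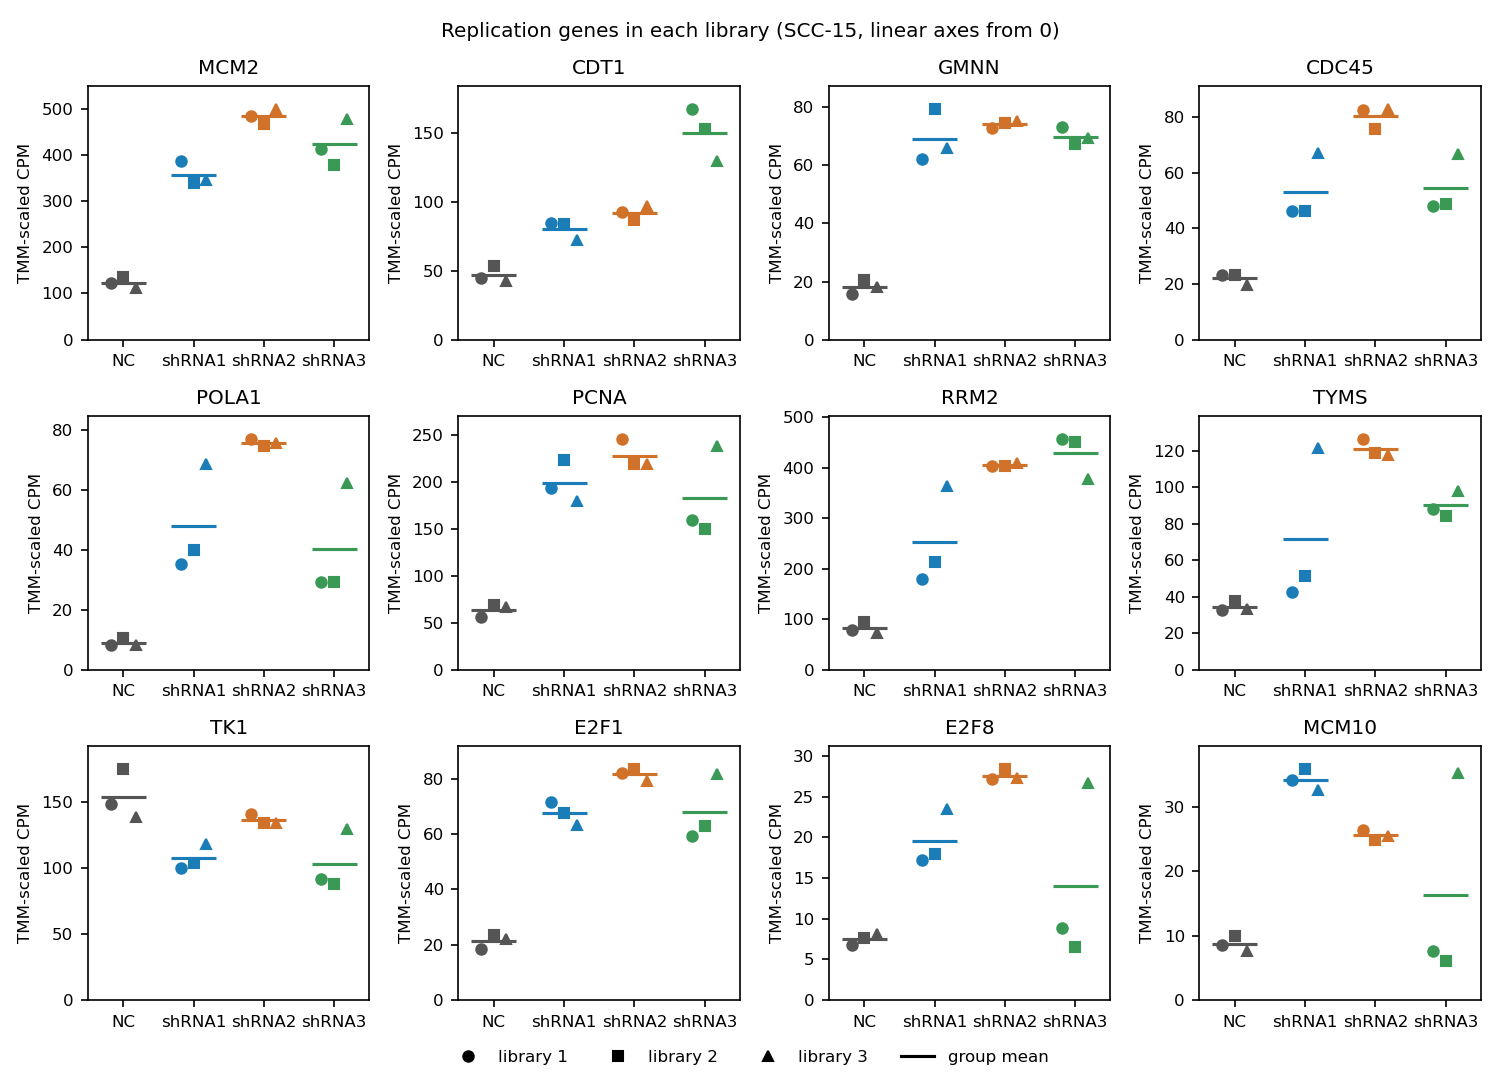
TMM-scaled CPM (linear axes from 0) of 12 members in each library, with markers for libraries 1 to 3 and a line at the group mean. MCM2, GMNN, PCNA and E2F1 are above NC in all 9 shRNA libraries, TK1 is below NC with shRNA1 and shRNA3, and MCM10 and E2F8 show 2 low libraries and 1 high library in shRNA3.

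The E2F and maintenance methylation genes rose with shRNA1 and shRNA2 in 3 of 3 cases and with shRNA3 in 2 of 3. E2F1 (ENSG00000101412, chr20:33675683-33686404, minus strand), an activator of S-phase transcription, stood at 18.4, 23.6 and 22.2 CPM in the NC libraries, 71.7, 67.4 and 63.1 with shRNA1, 82, 83.3 and 79.2 with shRNA2 and 59.2, 63 and 81.5 with shRNA3. The shRNA libraries lay apart from NC throughout. E2F1 rose 3.15-fold with shRNA1 (log2 1.65 ± 0.15, adjusted p = 5.6e-06), 3.81-fold with shRNA2 (log2 1.93 ± 0.15, adjusted p = 2.1e-06) and 3.17-fold with shRNA3 (log2 1.67 ± 0.15, adjusted p = 5.9e-06). E2F8, an atypical member of the family that represses the same kind of target, stood at 6.82, 7.63 and 8.12 CPM in the NC libraries, 17.3, 17.9 and 23.5 with shRNA1, 27.2, 28.4 and 27.3 with shRNA2 and 8.9, 6.56 and 26.7 with shRNA3. It was highest in shRNA2, and shRNA3 libraries 1 and 2 lay just outside the NC range on either side. E2F8 rose 2.6-fold with shRNA1 (log2 1.38 ± 0.42, adjusted p = 0.015) and 3.67-fold with shRNA2 (log2 1.88 ± 0.42, adjusted p = 0.0029), and the shRNA3 difference did not pass (log2 0.91 ± 0.41, adjusted p = 0.084). The shRNA1 call was lost without NC library 1 (adjusted p = 0.052). UHRF1 (ENSG00000276043, chr19:4903080-4962154, plus strand), which guides DNA methylation onto newly copied strands, stood at 39.4, 54.2 and 42.8 CPM in the NC libraries, 209, 207 and 248 with shRNA1, 231, 218 and 232 with shRNA2 and 164, 148 and 274 with shRNA3. Each shRNA library was above every NC library. UHRF1 rose 4.87-fold with shRNA1 (log2 2.28 ± 0.23, adjusted p = 9.5e-06), 4.99-fold with shRNA2 (log2 2.32 ± 0.23, adjusted p = 8.6e-06) and 4.31-fold with shRNA3 (log2 2.11 ± 0.22, adjusted p = 1.7e-05).

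The shRNA3 libraries disagreed on the size of the rise. The mean of libraries 1 and 2 was below library 3 in 33 of the 39 members, with a median ratio of 0.694, and 19 members were more than 1.5-fold lower there. Over 16821 tested genes the median ratio was 0.969, and 51.6% were below library 3. Of these genes 34.2% were more than 1.5-fold lower and 30.8% more than 1.5-fold higher. The ratio ran from 0.187 for POLE2 to 1.97 for POLD1, the single member more than 1.5-fold higher in libraries 1 and 2. Without library 3, shRNA3 had 24 members higher, where 32.3% of all genes were called higher, with a median log2 fold change of 0.85. In that fit 5 members were lower, namely GINS2, POLA2, POLE2, PRIM1 and TK1. The share of all genes called lower there is not given here, and with all 3 libraries it was 27.6%. With library 3 alone, 35 were higher, where 28.1% of all genes were, and 0 lower, with a median of 1.48; that library was assumed to vary like the other groups. The 24 members called higher without library 3 were the same 24 as with all 3 libraries, and the log2 fold change went there from 1.14 to 0.41 for GINS3, from 1.02 to 0.60 for MCM6 and from 0.83 to 0.49 for RFC5. The 18 mitosis genes were divided by this ratio, as were the tested genes as a whole. Of the 18, 10 were higher in libraries 1 and 2 than in library 3, 7 of them by more than 1.5-fold. Over all tested genes 48.4% and 30.8% were so. The other 8 were lower, 5 of them by more than 1.5-fold, beside 51.6% and 34.2% over all tested genes. The median ratio of the 18 was 1.4. The ratio ran from 0.345 for CENPF, a kinetochore protein, to 2.31 for CDK1, the mitotic kinase.

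**Figure D4:**
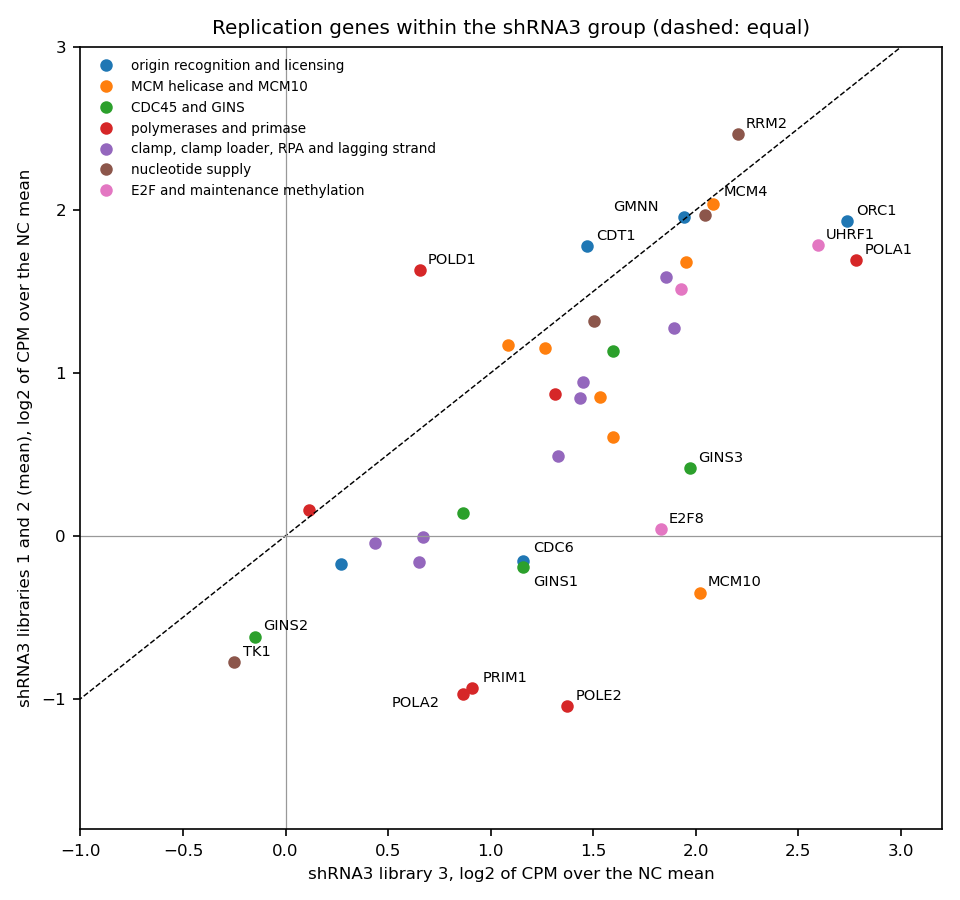
Each point is a member, placed by the log2 ratio of its CPM to the NC mean in shRNA3 library 3 (x axis) and in shRNA3 libraries 1 and 2 (mean, y axis), with role by colour and a dashed line of equality. Of the 39 points, 33 lie below the line; POLD1 lies furthest above it.

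Within shRNA1, library 3 was more than 1.5-fold above the mean of libraries 1 and 2 for MCM3, POLA1, POLA2, POLD1, PRIM1, RRM2 and TYMS, and under it by as much for 0 members. The median ratio was 1.14 over the members and 0.979 over 17076 tested genes, of which 13.8% were more than 1.5-fold higher. TYMS had the largest ratio, 2.58. The shRNA2 libraries agreed closely, their summed CPM of the 39 differing from 5253 to 5372.

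Few members passed between one hairpin and another, a share near or below the background in each pair. Between shRNA1 and shRNA2, 5 members passed, where 12.3% of all tested genes did. ORC6 was 1.73-fold higher with shRNA1 (log2 0.79 ± 0.17, adjusted p = 0.016). POLD1 (2.4-fold, log2 -1.26 ± 0.26, adjusted p = 0.012), LIG1 (1.68-fold, log2 -0.75 ± 0.15, adjusted p = 0.012), MCM5 (1.47-fold, log2 -0.56 ± 0.12, adjusted p = 0.015) and RRM1 (1.46-fold, log2 -0.55 ± 0.15, adjusted p = 0.038) were lower with shRNA1 than with shRNA2. Between shRNA1 and shRNA3, 8 members passed, where 30.0% of all genes did. CDC6, ORC6 and GINS3 were 2.2, 2.0 and 2.15-fold higher with shRNA1 (adjusted p = 0.019, 0.0050 and 0.036). POLD1, CDT1, RRM2, LIG1 and RRM1 were 2.74, 1.86, 1.7, 1.41 and 1.38-fold lower with shRNA1 (adjusted p = 0.0054, 0.0035, 0.029, 0.033 and 0.040). Between shRNA2 and shRNA3, 1 member passed, where 8.40% of all genes did. This was CDT1, 1.63-fold lower with shRNA2 (log2 -0.7 ± 0.14, adjusted p = 0.027).

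These counts between hairpins moved with single libraries, and each of the 14 differences was lost under at least 1 alternative setting. Without shRNA3 library 3, 23 members passed between shRNA1 and shRNA2, 29 between shRNA1 and shRNA3 and 32 between shRNA2 and shRNA3. In the same fit 7234, 11574 and 10800 of all 18242 tested genes passed, in that order, so the counts rose over all genes as well. Leaving out shRNA1 library 2 gave 0 between shRNA1 and shRNA2 by edgeR, with 8 members at an unadjusted p under 0.05. GINS1, GINS4, MCM10, RPA2, E2F8 and TK1, each called with some hairpins and not with others, passed in no test between hairpins, whereas ORC6, POLD1 and CDC6, also called with some hairpins and not others, did.

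More genes of the wider pathway rose than fell. Of 115 genes in 10 lists around replication, 67 rose and 11 fell for the mean of the hairpins, with 60 higher and 12 lower with shRNA1, 66 and 9 with shRNA2, and 57 and 8 with shRNA3. For the mean of the hairpins, to which the counts below refer, 27.9% of all tested genes were called higher and 32.2% lower. The kinases and factors that fire origins rose in 12 of 13 cases with 0 lower, with a median log2 fold change of 1.26. CDC25A, the phosphatase that activates CDK2, went from 4.81 ± 0.403 CPM in NC to 98.1 ± 16.3, 62.6 ± 2.62 and 34.7 ± 23.5 with shRNA1, shRNA2 and shRNA3 (log2 3.63, adjusted p = 5.8e-06 for the mean). Of the remaining subunits of the members' own complexes 4 of 12 were higher, a share near that over all genes, and 0 lower, with a median of 0.17. ORC5, another origin recognition subunit, had the largest rise there (log2 1.15, adjusted p = 0.027).

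In the fork protection and checkpoint list 6 of 13 rose and 2 fell, with a median of 0.23. CHEK1, the kinase that restrains origin firing at stalled forks, rose from 7.95 ± 0.734 CPM in NC to 41.1 ± 4.16, 42.1 ± 3.66 and 57.3 ± 7.67 (log2 2.54, adjusted p = 8.1e-08), and RAD9A, a subunit of the checkpoint clamp, had the largest fall (log2 -0.74, adjusted p = 0.037). Of 10 further nucleotide supply genes 4 rose and 2 fell, with a median of 0.35, beside the 27.9% and 32.2% over all genes. PAICS, a purine synthesis enzyme, rose from 64.2 ± 3.14 CPM to 208 ± 74.7, 334 ± 10.3 and 237 ± 31.4 (log2 1.99, adjusted p = 5.0e-06). GMPS, which makes GMP, fell from 448 ± 16 CPM to 183 ± 11.7, 198 ± 7.06 and 135 ± 63.3 (log2 -1.40, adjusted p = 5.3e-05). Chromatin assembly genes rose in 6 of 9 cases with 0 lower, led by SLBP, the histone mRNA binding protein (log2 1.46, adjusted p = 4.4e-06), with a median of 1.0.

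Among the E2F and RB family genes outside the members, 5 of 11 rose and 3 fell, with a median of 0.36. E2F2, an activator, rose from 2.52 ± 0.265 CPM in NC to 27.3 ± 6.5, 46.1 ± 2.26 and 35.1 ± 19.3 (log2 3.81, adjusted p = 2.1e-06). RBL2, the pocket protein p130, fell from 128 ± 10.5 CPM to 27.6 ± 10.4, 49.97 ± 5.35 and 78.1 ± 36.2 (log2 -1.43, adjusted p = 0.00055). The licensing turnover genes rose in 5 of 8 cases with 0 lower and a median of 0.65, SKP2, the ligase subunit that marks p27 for destruction, leading (log2 2.03, adjusted p = 3.3e-07). Helicase relatives and translesion genes rose in 6 of 10 cases and 1 fell, with a median of 0.63. MCMBP, an MCM-binding protein, had the largest rise (log2 1.48, adjusted p = 9.1e-06), and POLK, a translesion polymerase, was the one that fell (log2 -0.42, adjusted p = 0.038).

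The cyclin-dependent kinase inhibitors and G1 cyclins were mixed, with 5 of 11 higher, 3 lower and a median of 0.86. CDKN1C, the inhibitor p57, had the largest rise, from 10.2 ± 1.03 CPM in NC to 52.4 ± 14.7, 85.3 ± 0.524 and 499.6 ± 371 (log2 3.68, adjusted p = 0.00024). CCND2, cyclin D2, had 47.1, 31.1 and 31.9 CPM in the NC libraries and 0 counts in all 9 shRNA libraries. Against a floor of 3 counts per library, taken in the smallest shRNA library, it was at least 164.9-fold below the mean of the NC libraries. The mitosis list rose in 14 of 18 cases with 0 lower and a median of 0.87, AURKB, the kinase of the chromosomal passenger complex, leading (log2 1.79, adjusted p = 4.2e-05).

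The genes outside the members whose log2 CPM over the 12 libraries was most like the members' median were TEDC1 (Pearson r = 0.997), PKP3 (0.995), DNMT1 (0.992), SRSF2 (0.991) and FKBP4 (0.989). These correlations are a description over libraries that form 4 groups and share the contrast with NC. DNMT1, the methyltransferase that copies methylation marks, went from 116 ± 4.71 CPM in NC to 286 ± 28.8, 370.3 ± 2.2 and 297 ± 61.1. Among the members themselves the same correlation ran from -0.303 for TK1 and 0.0937 for GINS2 to 0.994 for POLA1.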

How the data were processed

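The data were 12 RNA-seq libraries of SCC-15 cells in 4 groups of 3. The authors deposited 1 table of estimated counts (expected counts) per gene ID, in which 13.8% of values were not whole numbers, so values were rounded to whole numbers before testing. The submitters' processing notes name HISAT2, HTSeq 0.11.2 and GRCh38; the annotation, filters and strand setting of the counting are not given in the sources used here. Every column was matched to a sample through its title, and 0 columns were left unmatched. Library totals ran from 17286975 to 19567248 estimated counts, and this depth sets the counting error of low genes such as POLE2. Gene positions, exon lengths for RPKM and overlaps came from GENCODE release 29 (GRCh38), which placed 58396 of the 61044 IDs. Of these IDs, 27430 were at 0 in all libraries, and 380 had no Ensembl ID.

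Genes were filtered with filterByExpr (minimum count 10, minimum total 15), scaled by TMM and fitted in edgeR 4.0.16 (R 4.3.3) with the robust quasi-likelihood F test in 1 model over the 4 groups; tests were two-sided. This left 17532 genes with a common biological coefficient of variation of 0.289. P-values were adjusted by Benjamini-Hochberg over all tested genes at a threshold of 0.05, and standard errors were derived from the fold change and its F statistic. CPM and RPKM are TMM-scaled, with the mean ± SD over 3 libraries. The procedure was tested on simulated data in which all genes had the same spread and few genes changed, in shRNA1 only. Libraries of a group had the same expected levels there. The simulation therefore does not cover the many genes called here or the disagreement within shRNA3. DESeq2 1.42.0, other scalings and filters, stricter thresholds, fits of the compared groups alone, a block on the library number and fits without single libraries were run as alternatives. A hairpin group's libraries were not duplicates of one another, since each pair differed by more than counting noise.

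The members and all gene lists were chosen with earlier results of these data known, so no count over them is independent evidence. Values per library are given for MCM2, CDT1, GMNN, CDC45, PCNA, RRM2, TYMS, E2F1 and E2F8, for the member with the largest and smallest mean fold change in each of 7 roles, and for the 3 members with the largest difference between hairpins (POLD1, CDC6 and GINS3). Other lists are given by counts with their largest called rise and fall.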

Additional observations from a re-analysis of the deposited data

Results flagged for a closer look

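The members below had fold changes that differed between hairpins by edgeR's test of the difference itself, with Benjamini-Hochberg adjustment over all tested genes; the comparisons share libraries. Between shRNA1 and shRNA2 the log2 differences were 0.79 ± 0.17 for ORC6 (SE, adjusted p = 0.016), -1.26 ± 0.26 for POLD1 (adjusted p = 0.012), -0.75 ± 0.15 for LIG1 (adjusted p = 0.012), -0.56 ± 0.12 for MCM5 (adjusted p = 0.015) and -0.55 ± 0.15 for RRM1 (adjusted p = 0.038). Between shRNA1 and shRNA3 they were 1.14 ± 0.30 for CDC6 (adjusted p = 0.019), 1.1 ± 0.35 for GINS3 (adjusted p = 0.036), 1.0 ± 0.18 for ORC6 (adjusted p = 0.005), -1.46 ± 0.26 for POLD1 (adjusted p = 0.0054), -0.90 ± 0.14 for CDT1 (adjusted p = 0.0035), -0.77 ± 0.23 for RRM2 (adjusted p = 0.029), -0.49 ± 0.15 for LIG1 (adjusted p = 0.033) and -0.46 ± 0.15 for RRM1 (adjusted p = 0.040). Between shRNA2 and shRNA3 the difference was -0.70 ± 0.14 for CDT1 (adjusted p = 0.027). Each of the 14 was lost under between 1 and 15 alternative settings other than the stricter thresholds.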

How the results depend on the processing

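Against NC, the number of members called stayed within 1.5 times of the reported count for each hairpin and for their mean under every alternative run. Of 116 called fold changes against NC, 99 were called under every alternative apart from the stricter thresholds. Without TMM scaling the calls of CDC6 and GINS1 with shRNA2 and of E2F8 with shRNA1 were among those lost (adjusted p = 0.066, 0.057 and 0.051). Over 137 fold changes and 2982 recomputed values, 8 changed sign. POLD1 with shRNA1, reported as not called, went to 0.0041 without NC library 2, 0.0564 without shRNA1 library 1 and 0.0203 without shRNA1 library 2 on the log2 scale, and to -0.34 without shRNA1 library 3. Without shRNA3 library 3 the shRNA3 fold changes went to -0.16 for CDC6, -0.20 for GINS1, -0.35 for MCM10 and -1.05 for POLE2, with the highest values on leaving out 1 library at 0.75, 0.69, 1.35 and 0.71, and POLE2 stood at -0.0045 with the replicate block. The counts between hairpins depended on the setting. Between shRNA1 and shRNA2 (5 reported), 3 members passed on library totals, 11 by DESeq2, 22 with the compared groups fitted alone, 22 with both shRNA3 libraries 1 and 2 left out, 1 at a log2 change of at least 1 and 0 at an adjusted p under 0.01 (14 at an unadjusted p under 0.05); leaving out 1 library gave 0 to 23. Between shRNA1 and shRNA3 (8 reported), 4 passed on library totals, 0 with the groups alone (7 at an unadjusted p under 0.05), 5 with both libraries left out, 3 at 0.01 and 4 at a log2 change of at least 1; leaving out 1 library gave 3 to 29. Between shRNA2 and shRNA3 (1 reported), 7 passed by DESeq2, 0 with the groups alone (6 at an unadjusted p under 0.05), and 0 at 0.01 or at a log2 change of at least 1 (10 at an unadjusted p under 0.05); leaving out 1 library gave 0 to 32. The highest counts came without shRNA3 library 3 each time. In the reported fit the spread was estimated in 1 model over all 4 groups, so the shRNA3 libraries entered the test of every comparison. That includes shRNA1 against shRNA2 and the comparisons reported as not passed. The cause of the higher counts was not tested. Over all genes, the counts between these pairs were 2156, 5259 and 1473 of 17532 tested. Without shRNA3 library 3 they were 7234, 11574 and 10800 of 18242 tested. Over all fits that left out 1 library they ran from 564 to 7234, 1786 to 11574 and 0 to 10800. Under the other alternatives they ran from 530 to 7028, 0 to 6750 and 0 to 3792. The counts over all genes thus moved with the setting as well, and those for each setting are not given here.

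Libraries with the same number did not deviate together from their group means (mean correlation -0.00437 over 18 pairs). The numbers are therefore not treated as pairs. The 36 pairs with unlike numbers gave 0.00188. Deviations from a group mean cancel within the group, so this value follows largely from the first and is not a separate reference. With the replicate block 30, 29 and 25 members were called with shRNA1, shRNA2 and shRNA3, 31 for the mean, and 4, 6 and 1 between the pairs of hairpins. The counts over all genes in that fit are not given here. At this depth POLE2, with 26 counts in its lowest library, is the member most limited by counting.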
